A study of Homo sapiens with 6 samples.

Results

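The sensors and effectors of the unfolded protein response were examined in U87 cells, a human glioblastoma line, 96 h after lentiviral knockdown of ZNF768. The list held 10 genes: the sensors EIF2AK3 (PERK), ERN1 (IRE1α) and ATF6, the transcription factors ATF4, DDIT3 (CHOP), ATF3 and XBP1, the chaperone HSPA5 (BiP), the phosphatase subunit PPP1R15A (GADD34) and the pseudokinase TRIB3. A gene entered when the platform's table gave a probeset its symbol, and a gene with several was to be read from the probeset of highest mean level on the 6 arrays. This left 8 of the 10 genes, each with 1 named probeset, among 14884 genes in all. HSPA5 and PPP1R15A have no probeset named here and were not analysed.

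RNA came from ZNF768 depleted cells (3 arrays) and from control cells (3 arrays). Both groups were U87 cells taken 96 h post-infection after selection of infected cells, with an agent that the sources used here do not name for these arrays. The study describes 3 independent biological replicates per condition. The labels name neither the hairpin nor the control virus, and all cells came from a single tumour line, so the values describe that line and that infection. The measured quantity was mRNA. Phosphorylation of the sensors, cleavage of ATF6 and splicing of XBP1 were not measured by these arrays.

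The unfolded protein response adjusts the endoplasmic reticulum (ER) to its load of unfolded proteins through 3 membrane proteins. PERK phosphorylates the translation factor eIF2α, which slows most translation but favours that of ATF4, and ATF4 in turn activates genes such as DDIT3, ATF3 and TRIB3. IRE1α cuts XBP1 mRNA so that an active transcription factor is made, and ATF6 is cleaved in the Golgi to release a factor that acts on chaperone genes. Kinases other than PERK also phosphorylate eIF2α, and the branch shared by them is called the integrated stress response.

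Expression is given on a log2 scale, 1 value per probeset and array after Robust Multichip Average (RMA), with array medians of 6.40 to 6.44. ZNF768 mRNA read 7.02, 7.14 and 7.31 in ZNF768 depleted cells, against 8.49, 8.54 and 8.54 in control cells, which is 0.388 of the control level (log2 difference -1.36, adjusted p = 0.00015 from limma). Of the 14884 genes, 33.4% passed the test in either direction, 16.6% as higher and 16.8% as lower, so a count of changed genes has to be read against a large background. VIM, CD44 and NES, markers of glioblastoma cells, were lower in ZNF768 depleted cells and the other 5 of 8 measured astroglial markers did not pass the test. GFAP, the astrocyte filament, averaged 7.03 ± 0.18 in ZNF768 depleted cells and 6.83 ± 0.09 in control cells (SD, n = 3 each), below the upper quartile of every array (7.93 to 8.02). Of 7 measured myeloid markers 3 were lower and none higher (CD68, a lysosomal protein used as a macrophage marker, had a log2 difference of -3.11), and their mean log2 value per array was 7.07 to 7.17 in ZNF768 depleted cells and 7.62 to 7.67 in control cells. The fall of this mean came mainly from CD68. CSF1R and LAPTM5 had log2 differences of -0.50 and -0.34, and the 4 uncalled markers had -0.01 to 0.20. Of 2 measured neuron markers 1 was lower, with mean log2 values of 7.14 to 7.32 in ZNF768 depleted cells and 7.42 to 7.47 in control cells. The part of these markers in the results below was not tested. All samples were of the U87 line, so these markers are read as genes of that line and not as counts of myeloid cells or neurons. In a bulk culture, fewer cells with an mRNA and less of it per cell cannot be told apart.

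In ZNF768 depleted cells the mRNAs of EIF2AK3, DDIT3, ATF3, TRIB3 and ATF4 rose, by 1.22 to 2.36 times, while those of ERN1 and XBP1 fell to 0.504 and 0.683 of the control level. ATF6 had a log2 difference of -0.17 and did not pass the test. Thus 5 genes rose and 2 fell among the 8 measured, where 33.4% of all named genes were called (limma, Benjamini-Hochberg adjusted p under 0.05 over 53617 probesets). The median log2 difference was 0.39 over the 8 genes and 0.04 over all named genes. With a further limit of 1.5-fold, 3 genes rose (EIF2AK3, DDIT3 and ATF3) and 1 fell (ERN1), where 13.9% of all named genes were called. In each of the 8 genes the values of the groups did not overlap, with 5 higher and 3 lower in ZNF768 depleted cells. This was also the case in 51.5% of all named genes (28.0% higher and 23.5% lower). At an adjusted p under 0.01 limma called 4 of the 8 genes higher and 2 lower, where 22.2% of all named genes were called.

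**Figure D1:**
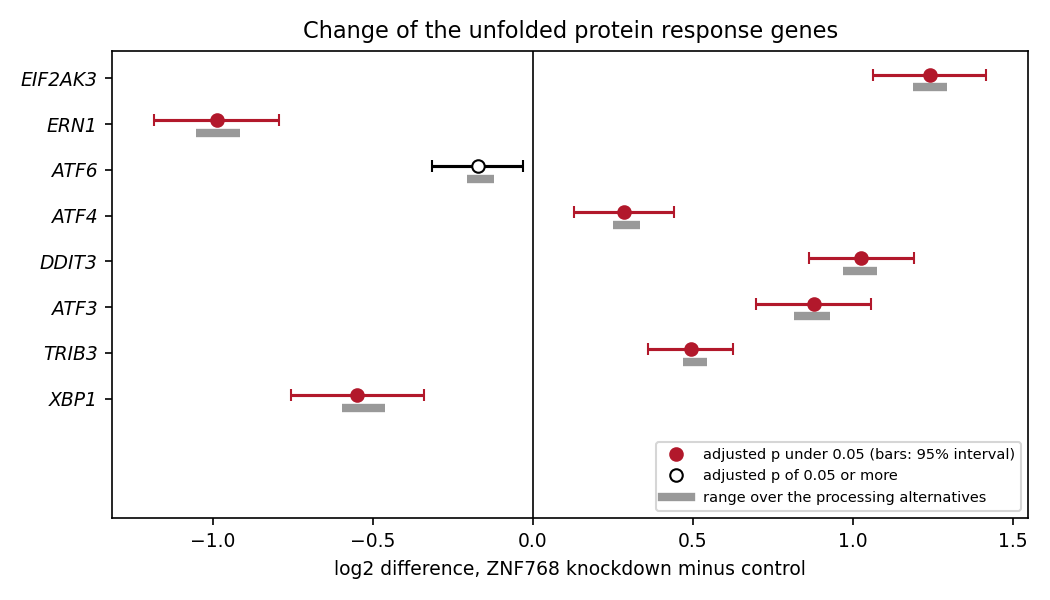
Log2 difference between ZNF768 depleted and control U87 cells (x axis) for the 8 measured genes (y axis), with the 95% interval from limma as bars and the range over all processing alternatives as grey bands. EIF2AK3, DDIT3, ATF3, TRIB3 and ATF4 lie right of 0, ERN1, XBP1 and ATF6 lie left of it, and ATF6, drawn as an open circle, did not pass the test.

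Among the sensors, EIF2AK3, the ER kinase of eIF2α, had the largest change. It read 9.82, 9.71 and 9.80 in ZNF768 depleted cells, against 8.43, 8.53 and 8.64 in control cells. All values of the depleted cells lay about a full log2 unit above the highest control value. The gene was 2.36 times its control level (95% interval 2.09 to 2.67, log2 difference 1.24, standard error 0.0736, adjusted p = 0.000124 from limma), which is rank 75 of 14884 genes ordered by rise.

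ERN1, the kinase and endoribonuclease that cuts XBP1 mRNA, went the other way. It read 8.18, 8.08 and 7.91 in ZNF768 depleted cells, against 9.03, 9.05 and 9.04 in control cells. The control values were almost equal, and the depleted cells spread more widely but all below them. ERN1 was 0.504 of its control level (95% interval 0.440 to 0.577, log2 difference -0.99, standard error 0.0811, adjusted p = 0.0004 from limma), rank 514 of 14884 by fall.

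ATF6, the membrane-bound transcription factor of the third branch, read 11.54, 11.51 and 11.51 in ZNF768 depleted cells, against 11.63, 11.70 and 11.76 in control cells. The difference was small beside that of the other sensors, and the gene was 0.887 of its control level (95% interval 0.804 to 0.979, adjusted p = 0.0903 from limma). The interval is that of the gene alone and does not account for the other probesets. The call depended on the fit: adjusted p ranged from 0.0211 to 0.202 over the alternatives.

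**Figure D2:**
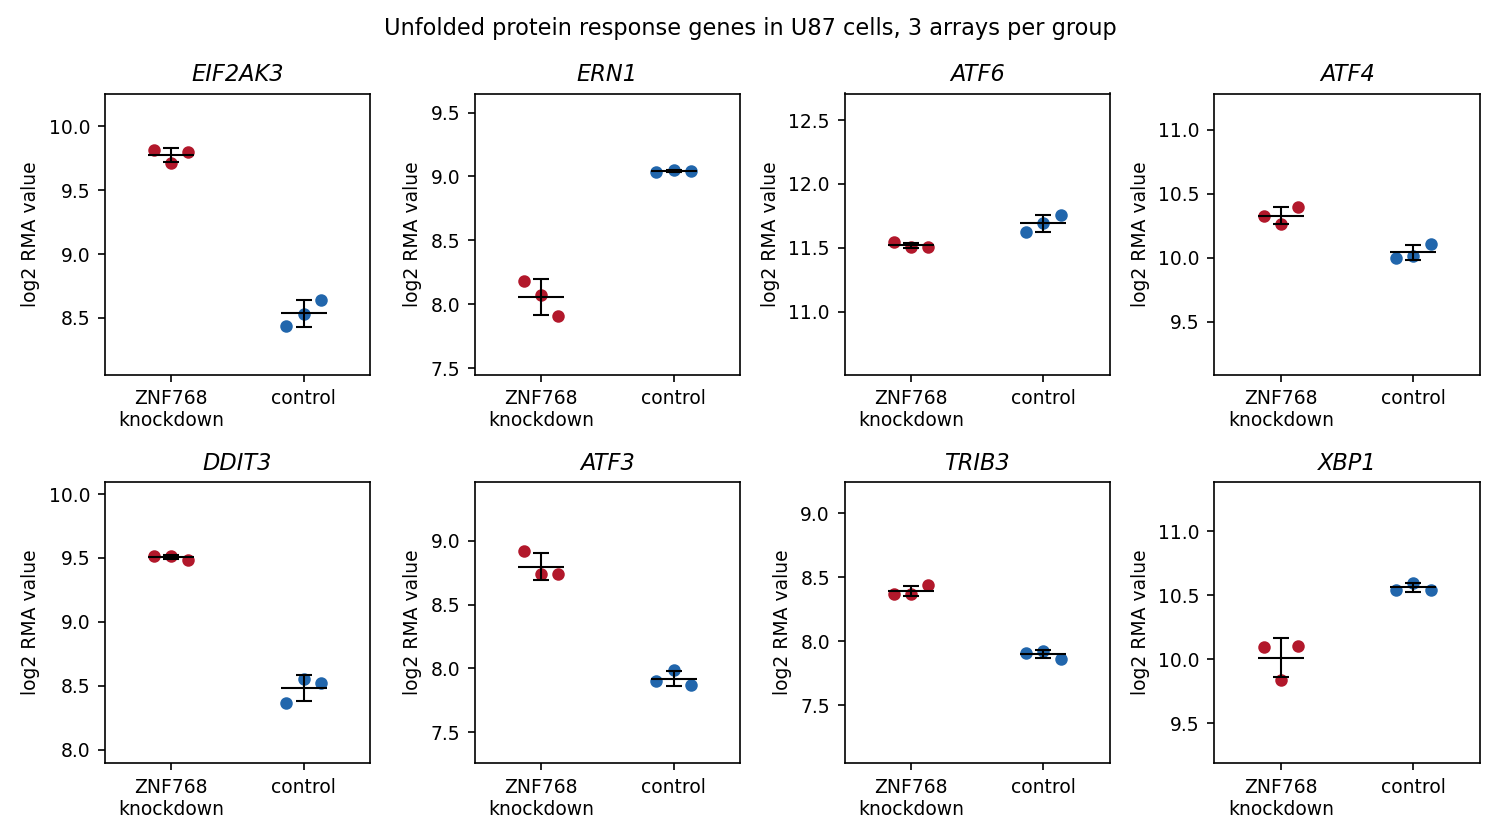
Log2 RMA values (y axis) of the 8 genes on each array, with ZNF768 depleted cells on the left and control cells on the right of each panel, points for arrays and black bars for the mean ± SD (n = 3). Each y axis spans the same number of log2 units, so distances can be compared between panels. EIF2AK3 reads 9.71 to 9.82 in ZNF768 depleted cells and 8.43 to 8.64 in control cells, and no panel shows an overlap of the groups.

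EIF2AK3 stood apart from the other eIF2α kinases in its direction. The list of PERK pathway and eIF2 control genes held 18 names, of which only 5 were measured. Over all named genes 16.6% rose and 16.8% fell, and here 4 of the 5 fell and 1 rose. All 3 other kinases were among those that fell. EIF2AK2 (PKR), which responds to double-stranded RNA, read 9.87, 9.77 and 9.74 in ZNF768 depleted cells, against 10.59, 10.69 and 10.61 in control cells (log2 difference -0.84, adjusted p = 0.000284 from limma). EIF2AK4 (GCN2), the sensor of amino acid shortage, had a log2 difference of -0.65 (adjusted p = 0.000359 from limma). For EIF2AK1 (HRI), the heme-regulated kinase, the difference was -0.63 (adjusted p = 0.000427 from limma), and both were named after their values were seen. Their intervals were 0.504 to 0.622 of the control level for EIF2AK2, 0.584 to 0.695 for EIF2AK4 and 0.593 to 0.707 for EIF2AK1. IMPACT, an inhibitor of GCN2, fell most in this list, to 0.431 of its control level (8.83 ± 0.04 in ZNF768 depleted cells and 10.05 ± 0.08 in control cells, SD, n = 3 each). The gene that rose was NCK1, an adaptor protein, with a log2 difference of 0.31 (adjusted p = 0.0194). Its call was lost without control replicate 1 (0.29), control replicate 2 (0.31), ZNF768 knockdown replicate 1 (0.28) or ZNF768 knockdown replicate 3 (0.29), with values on the log2 scale.

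**Figure D3:**
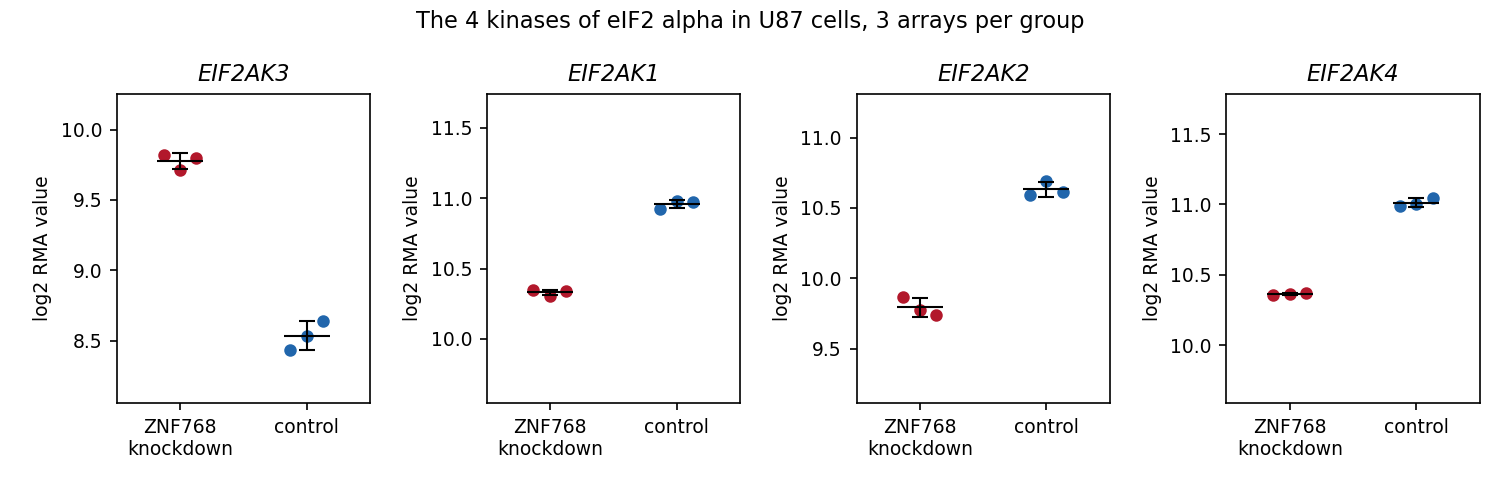
Log2 RMA values (y axis) of the 4 eIF2α kinases on each array, ZNF768 depleted cells left and control cells right, with points for arrays and black bars for the mean ± SD (n = 3). EIF2AK3 was higher in ZNF768 depleted cells by 1.24 on the log2 scale, while EIF2AK1, EIF2AK2 and EIF2AK4 were lower, with differences from -0.84 to -0.63.

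The transcription factors of the PERK branch rose to different degrees. ATF4, whose output is set largely at translation, read 10.32, 10.26 and 10.40 in ZNF768 depleted cells, against 10.00, 10.02 and 10.11 in control cells. The gap between the groups was narrow, and ATF4 was 1.22 times its control level (95% interval 1.09 to 1.36, log2 difference 0.29, standard error 0.0645, adjusted p = 0.0227 from limma). The call was kept without control replicate 3 or ZNF768 knockdown replicate 2 and lost without any one of the other 4 arrays. Without control replicate 1 the log2 difference was 0.26 (adjusted p = 0.0651), without control replicate 2 it was 0.27 (adjusted p = 0.0771), without ZNF768 knockdown replicate 1 it was 0.29 (adjusted p = 0.0671) and without ZNF768 knockdown replicate 3 it was 0.25 (adjusted p = 0.066), with adjusted p from 0.00613 to 0.0771 over all alternatives.

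DDIT3, the transcription factor CHOP that promotes cell death under lasting ER stress, read 9.52, 9.51 and 9.49 in ZNF768 depleted cells, against 8.37, 8.55 and 8.52 in control cells. The depleted cells were nearly equal to each other, and the lowest of them exceeded the highest control value by most of a log2 unit. DDIT3 was 2.04 times its control level (95% interval 1.82 to 2.28, log2 difference 1.03, standard error 0.0679, adjusted p = 0.00019 from limma), rank 166 of 14884 by rise.

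ATF3, a stress-induced partner of other basic leucine zipper factors, read 8.92, 8.74 and 8.74 in ZNF768 depleted cells, against 7.90, 7.99 and 7.87 in control cells. It was 1.84 times its control level (95% interval 1.62 to 2.08, log2 difference 0.88, standard error 0.0745, adjusted p = 0.00045 from limma), rank 272 by rise. TRIB3, a pseudokinase that binds AKT and ATF4 and acts as a feedback regulator, read 8.37, 8.37 and 8.44 in ZNF768 depleted cells, against 7.91, 7.93 and 7.86 in control cells. TRIB3 was 1.41 times its control level (95% interval 1.28 to 1.54, log2 difference 0.49, standard error 0.0549, adjusted p = 0.00129 from limma), a smaller rise than those of DDIT3 and ATF3 with little spread between arrays.

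XBP1, the transcription factor downstream of IRE1α, read 10.09, 9.84 and 10.11 in ZNF768 depleted cells, against 10.54, 10.60 and 10.54 in control cells. The probeset gives a single value for the gene and does not separate the spliced from the unspliced form. XBP1 was 0.683 of its control level (95% interval 0.592 to 0.789, log2 difference -0.55, standard error 0.0862, adjusted p = 0.00518 from limma). ZNF768 knockdown replicate 2 was the lowest array, and without it the log2 difference was -0.46 with the call kept. XBP1, ATF6, ATF3 and TRIB3 each had a pair of arrays of 1 group with values equal to the last digit, as had 16.5% of all genes.

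The promoters of the 2 genes with the largest rises and of the 2 that fell are shown because these genes moved apart within a single pathway. The sequences are the 250 bases before the RefSeq start site (GRCh38.p14), 5′ to 3′ on the strand of the gene, and capitals mark matches on either strand to any of the motifs below.
EIF2AK3, chr2:88627465-88627714, minus strand: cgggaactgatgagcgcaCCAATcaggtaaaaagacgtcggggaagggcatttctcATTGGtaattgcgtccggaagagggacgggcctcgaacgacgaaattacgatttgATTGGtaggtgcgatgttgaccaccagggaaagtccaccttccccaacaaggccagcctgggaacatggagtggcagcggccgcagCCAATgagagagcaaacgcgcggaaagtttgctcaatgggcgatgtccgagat
DDIT3, chr12:57520515-57520764, minus strand: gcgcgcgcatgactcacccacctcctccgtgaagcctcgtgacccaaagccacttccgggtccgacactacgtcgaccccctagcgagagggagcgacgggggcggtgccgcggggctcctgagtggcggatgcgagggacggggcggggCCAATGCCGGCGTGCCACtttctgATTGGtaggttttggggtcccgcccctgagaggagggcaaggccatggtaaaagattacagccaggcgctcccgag
ERN1, chr17:64130145-64130394, minus strand: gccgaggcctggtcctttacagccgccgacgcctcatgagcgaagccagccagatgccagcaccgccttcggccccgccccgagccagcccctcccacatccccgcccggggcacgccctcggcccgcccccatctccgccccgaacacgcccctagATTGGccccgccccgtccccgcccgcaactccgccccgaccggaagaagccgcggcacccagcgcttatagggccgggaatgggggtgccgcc
XBP1, chr22:28800570-28800819, minus strand: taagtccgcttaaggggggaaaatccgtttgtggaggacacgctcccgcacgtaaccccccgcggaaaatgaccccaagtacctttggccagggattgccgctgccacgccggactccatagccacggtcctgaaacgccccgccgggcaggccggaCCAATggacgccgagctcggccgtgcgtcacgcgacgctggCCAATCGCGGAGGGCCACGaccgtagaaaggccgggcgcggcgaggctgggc

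The search covered these bases and the 50 after the start site, on both strands. The motifs were the ER stress response element ERSE (CCAAT and CCACG with 9 bases of any kind between them, in 0.0769% of 35116 promoter windows), the same letters without the last base (CCAAT and CCAC at that distance, 0.316%, which holds every ERSE), ERSE-II (ATTGG and CCACG with 1 base between them, 0.0541%), the unfolded protein response element (TGACGTGG, 0.729%), the cAMP response element (TGACGTCA, 1.85%), the C/EBP-ATF element of ATF4 targets (TGATGNAA, 3.62%) and the CCAAT box (CCAAT, 34.6%, which is also part of the first 2). XBP1 holds a full ERSE that begins at position -52 from the start site, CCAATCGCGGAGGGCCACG. DDIT3 holds the shortened form at -100, CCAATGCCGGCGTGCCAC, and a further start site of DDIT3 lies a few bases away. EIF2AK3 holds 4 CCAAT boxes and ERN1 holds 1, and neither has the longer motifs in this window. In ATF3 the letters TGATGGAA of the C/EBP-ATF element occur at -191 and a CCAAT box at -25. Of the genes not measured, HSPA5 holds a full ERSE at -66 and PPP1R15A the cAMP response element at -58, and the windows of ATF4, ATF6 and TRIB3 hold none of these letters. XBP1 and ATF3 each have a further start site, and the windows there hold none of these letters. A match in letters is not shown to be a bound site. The full ERSE was found in the windows of 25 genes, of which 11 were measured. Among these XBP1 fell and TMEM120A and ZNF17 rose, named after their values were seen, while the chaperones CALR (log2 difference 0.12, adjusted p = 0.153) and CANX (-0.05, adjusted p = 0.574) did not pass the limma test. The test called 27.3% of the 11 genes, against 33.4% of all named genes. Their median log2 difference was -0.05, against 0.04 over all named genes.

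Differences within each array were compared for 4 chosen pairs of the measured genes, the 3 pairs of sensors and DDIT3 with ATF4. EIF2AK3 minus ERN1 was 1.72 ± 0.15 in ZNF768 depleted cells and -0.51 ± 0.10 in control cells on the log2 scale (SD, n = 3 each), a shift of 2.23 (95% interval 1.94 to 2.51). The shift of EIF2AK3 minus ATF6 was 1.41 (95% interval 1.32 to 1.51), and that of ERN1 minus ATF6 was -0.82 (95% interval -1.04 to -0.59). DDIT3 minus ATF4 shifted by 0.74 (95% interval 0.55 to 0.93). With 3 arrays against 3 an exact two-sided permutation test cannot give a p below 0.1, and each of the 4 pairs had p = 0.1, which remained 0.1 after adjustment over the 4. Such a ratio shows unequal change of 2 probesets, and probesets can differ in how strongly they respond.

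**Figure D4:**
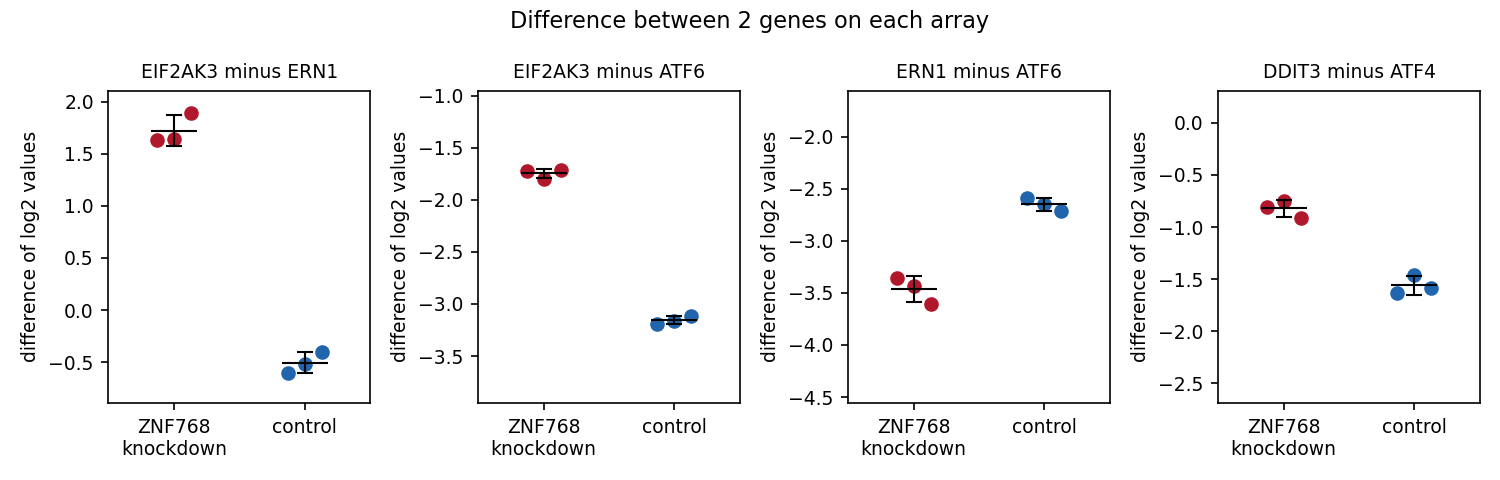
Difference of the log2 values of 2 genes on the same array (y axis), for 4 pairs, with ZNF768 depleted cells left and control cells right, points for arrays and black bars for the mean ± SD (n = 3). EIF2AK3 minus ERN1 averages 1.72 in ZNF768 depleted cells and -0.51 in control cells, and each y axis spans the same number of log2 units.

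The measured genes among those that ATF4 and CHOP are known to activate did not rise together. CHAC1, NUPR1, CEBPB, TNFRSF10B, MTHFD2 and all listed SLC transporter genes had no named probeset and are not covered. Of 49 listed target genes 32 were measured, with 8 rises, 8 falls and 16 genes not past the test, and their median log2 difference was 0.05. STC2, the secreted glycoprotein stanniocalcin-2, rose most, to 2.22 times its control level (11.85 ± 0.06 in ZNF768 depleted cells and 10.70 ± 0.03 in control cells, SD, n = 3 each, adjusted p = 7.9e-05 from limma). KLHL24, an adaptor of a ubiquitin ligase, rose to 1.61 times its control level. DDIT4 (REDD1), an inhibitor of mTORC1, fell to 0.411 of its control level (9.50 ± 0.16 in ZNF768 depleted cells and 10.79 ± 0.01 in control cells, SD, n = 3 each, adjusted p = 0.00023 from limma), and PHGDH, the first enzyme of serine synthesis, fell to 0.569. Of 12 aminoacyl-tRNA synthetases in this list, grouped after the values were seen and known to charge tRNAs with amino acids, 3 rose (EPRS1, CARS1 and GARS1) and 3 fell (LARS1, IARS1 and WARS1). ASNS, asparagine synthetase, had a log2 difference of -0.62 (adjusted p = 0.000451 from limma). These 7 genes were named after their values were seen.

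Among 37 listed genes of IRE1 signalling and XBP1 targets, 21 were measured. The targets serve entry into the ER, transport and folding, while ERN2, MAP3K5, RTCB and ZBTB8OS belong to the signalling part. Of the 21 measured genes the test called 9 higher and 3 lower in ZNF768 depleted cells and left 9 uncalled. Thus 57.1% were called, against 33.4% of all named genes (16.6% higher and 16.8% lower). ERN2, RTCB and ZBTB8OS of the signalling part were among the rises. The level of ERN2 was low, 6.98 to 7.02 in ZNF768 depleted cells and 6.59 to 6.79 in control cells. These values lie below the upper quartile of every array (7.93 to 8.02). ERN1 and XBP1 themselves fell. KDELR3, a receptor that returns escaped ER proteins from the Golgi, was 2.45 times its control level (12.25 ± 0.10 in ZNF768 depleted cells and 10.96 ± 0.05 in control cells, SD, n = 3 each, adjusted p = 9.84e-05 from limma). GFPT1, which controls entry into hexosamine synthesis, rose to 1.63 times its control level. RTCB, the ligase that joins the cut ends of XBP1 mRNA, had a log2 difference of 0.54 (adjusted p = 0.0013 from limma), named after its value was seen. MAP3K5 (ASK1), a stress kinase that IRE1α can engage through TRAF2, fell to 0.499 of its control level (6.96 ± 0.11 in ZNF768 depleted cells and 7.96 ± 0.13 in control cells, SD, n = 3 each). ARFGAP3, a regulator of Golgi transport, had a log2 difference of -0.28 (adjusted p = 0.0175 from limma), and its call was lost without control replicate 2 (-0.27), control replicate 3 (-0.27) or ZNF768 knockdown replicate 2 (-0.25). With any one of these 3 arrays left out, the count of falls was 1. A subset grouped after the values were seen, the 11 measured genes of the translocon, the signal recognition particle and signal peptidase, had 2 rises and 1 fall. The share called in this subset was 27.3%, against 33.4% of all named genes.

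The ATF6 branch was represented by 11 measured genes of 16 listed, mainly relatives of ATF6 and proteins that bind or restrain it. MBTPS1 and MBTPS2, the listed proteases that process ATF6, had no named probeset, nor had NFYA, NFYB and NFYC. CREB3L1 and CREB3, transcription factors that are cleaved from the membrane like ATF6, rose to 1.56 and 1.47 times their control levels. WFS1 (wolframin), an ER membrane protein that restrains ATF6, fell to 0.455 of its control level (8.95 ± 0.03 in ZNF768 depleted cells and 10.08 ± 0.08 in control cells, SD, n = 3 each, adjusted p = 0.000107 from limma). The other 8 did not pass the test, so 27.3% of this list were called, against 33.4% of all named genes. ATF6B, the closest relative of ATF6, had a log2 difference of -0.01 (adjusted p = 0.947 from limma), named after its value was seen.

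Those ER chaperones and folding enzymes that were measured, a class that is a main product of an active response, showed mostly small changes in both directions. HSP90B1, P4HB, SIL1, SERPINH1 and all listed PDIA genes had no named probeset, like HSPA5, so the list says nothing of them. Of 44 listed genes 26 were measured, with 5 rises, 4 falls and 17 genes not past the test (34.6%, against 33.4% of all named genes), with a median log2 difference of 0.00 to 2 decimals. TXNDC11 and SDF2, which take part in folding, had log2 differences of 0.38 and 0.37. UGGT1, which marks misfolded glycoproteins for another round of folding, had one of -0.72 (adjusted p = 0.000601 from limma) and HYOU1, the nucleotide exchange factor of BiP, one of -0.48 (adjusted p = 0.0031 from limma). Over the alternative fits the log2 difference of HYOU1 ranged from -0.51 to -0.31, with adjusted p up to 0.033 from limma. The count of rises was 2 without control replicate 1, control replicate 2, ZNF768 knockdown replicate 1 or ZNF768 knockdown replicate 3 and 3 without control replicate 3, and that of falls was 2 without control replicate 2, control replicate 3 or ZNF768 knockdown replicate 1.

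Genes of ER-associated degradation, which pulls misfolded proteins out of the ER for the proteasome, moved both ways. Of 33 listed genes 21 were measured, with 6 rises, 8 falls and 7 genes not past the test. Thus 66.7% were called, against 33.4% of all named genes. HERPUD2, a ubiquitin-like ER membrane protein, and NPLOC4, a cofactor of the extraction ATPase VCP, fell to 0.514 and 0.515 of their control levels (adjusted p = 9.52e-05 and 0.000113 from limma). UBXN6, another VCP cofactor, rose to 1.38 times its control level. SELENOS, a selenoprotein that links VCP to the ER membrane, had a log2 difference of 0.45 (adjusted p = 0.0202 from limma), and its call was lost without control replicate 1 (0.44), control replicate 3 (0.41) or ZNF768 knockdown replicate 1 (0.45).

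**Figure D5:**
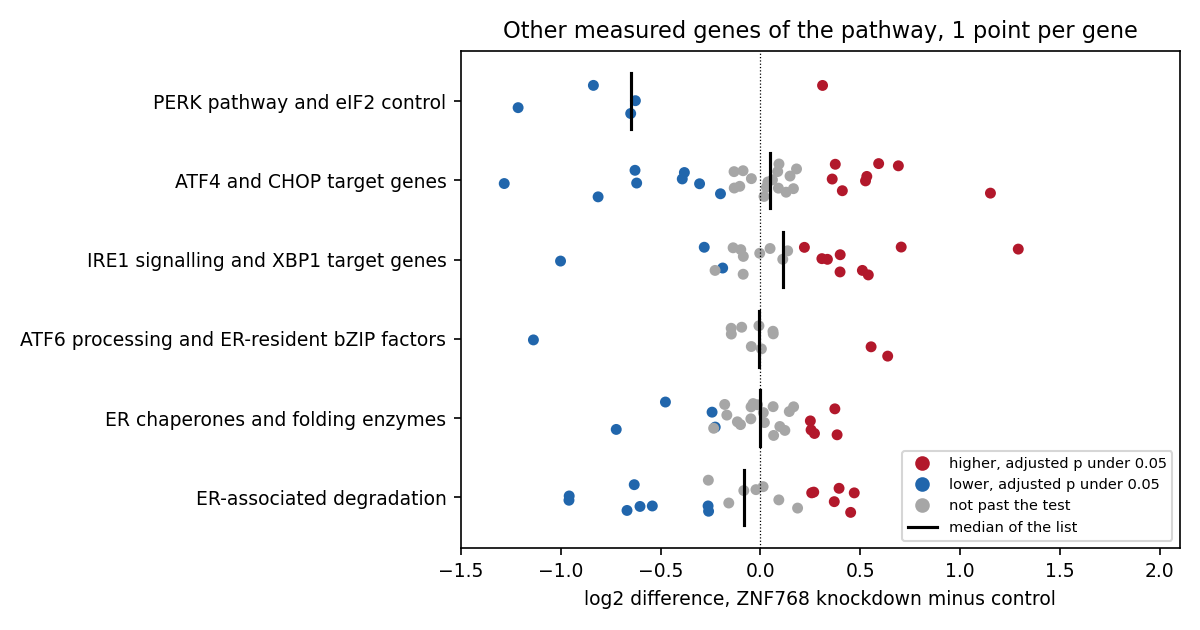
Log2 difference between ZNF768 depleted and control cells (x axis) of the other measured genes of the pathway in 6 lists (rows), with 1 point per gene, colours for calls at an adjusted p under 0.05 and a black line at each list's median. Most of the 26 ER chaperones and folding enzymes lie around 0, with UGGT1 furthest left at -0.72. Of the 5 genes of PERK pathway and eIF2 control 4 lie left of -0.6.

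Taking all 6 lists, 116 of 197 genes were measured. The test called 31 of them higher and 28 lower in ZNF768 depleted cells and left 57 uncalled. Thus 50.9% were called, against 33.4% of all named genes, and the median log2 difference of the 116 was 0.01. The 6 lists had mean log2 values per array of 9.41 to 10.30, above the upper quartile of every array (7.93 to 8.02). The part of expression level in the shares called was not tested. The 8 sensors and effectors described above are in none of these lists.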

How the data were processed

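Affymetrix Human Gene 2.0 ST arrays (1 colour) measured RNA of 3 ZNF768 depleted and 3 control U87 samples. The deposited values are log2 expression values that the authors extracted by RMA in the oligo package, which corrects background, normalizes between arrays and summarises probes. Versions are not given in the sources used here. Of 53617 probesets 16098 carry a single symbol, updated through Entrez identifiers against RefSeq (16098 matched), which gave 14884 genes. The remaining 37519 are unnamed here. The background of a probeset is not known, and the number of arrays limits the precision.

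The test between groups was limma 3.58.1 under R 4.3.3, by lmFit and eBayes on every probeset without filter or covariate. P-values were adjusted by Benjamini-Hochberg across the whole table and called under 0.05, and folds were computed from log2 differences. The procedure was tested on simulated data. The genes named were ZNF768, the 8 measured members and, for each of 6 pathway lists, up to 2 rises and 2 falls past the test without overlap. The members and lists were chosen with earlier results of these data known. Differences between 2 members were tested by exact permutation over samples. Promoter sequences come from RefSeq (GRCh38.p14), and each of the 10 listed genes matched. Alternatives were cyclic loess, housekeeping gene centring, a filter on dim probesets, a restriction to named probesets, averaging of each gene's probesets, trend and robust settings, array weights, a replicate block, each sample left out, an adjusted p of 0.01 and a change of 1.5-fold.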

Additional observations from a re-analysis of the deposited data

How the results depend on the processing

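The direction held in all 31 named genes under all 14 alternative fits, and 26 of them also kept their call. The exceptions were ATF6, ATF4, NCK1, ARFGAP3 and SELENOS. ATF6 passed the limma test with trend and robust settings (adjusted p = 0.0211), without probesets below the median (0.0363) and with named probesets only (0.0374). With a change of at least 1.5-fold, 841 of all genes rose and 1230 fell, and 3 members rose and 1 fell. The same limit left 3 rises and 4 falls of ATF4 and CHOP targets. Of the IRE1 and XBP1 list it left 2 rises and 1 fall, and of the ATF6 list 1 rise and 1 fall (WFS1). All 4 falls of the PERK list passed this limit, with 1 fall of the chaperones and 5 falls of ER-associated degradation. The 1.5-fold limit left 0 rises of the PERK list, the chaperones and ER-associated degradation in limma, where 1, 7 and 7 genes were higher at an unadjusted p under 0.05. At an adjusted p under 0.01, 1506 genes rose, and the PERK list had 0 rises (1 at an unadjusted p under 0.05), the IRE1 list 1 fall, the chaperones 2 rises and 2 falls and ER-associated degradation 3 rises. With trend and robust settings the ATF6 list had 2 falls. When each sample was left out in turn, the PERK list had 0 to 1 rises, the IRE1 list 1 to 2 falls and the chaperones 2 to 4 rises and 2 to 4 falls. Where NCK1 lost its call, its unadjusted p was 0.0107 to 0.0127.

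The replicate numbers are shared by the groups, and the study reports that groups of an experiment started from the same plate of cells. Deviations of same-numbered samples correlated at -0.07, -0.02 and 0.02, and those of differently numbered samples at -0.05 to 0.07. With 3 arrays per group such values cannot show whether the replicates were paired. With the replicate block, which leaves fewer degrees of freedom, 1865 genes rose and 2029 fell, 4 members rose and 2 fell, and ATF4 (adjusted p = 0.0517 from limma), NCK1 (0.057), ARFGAP3 (0.0704) and SELENOS (0.0681) lost their calls. The PERK list then had 0 rises, the IRE1 list 1 fall, the chaperones 2 rises and 2 falls and ER-associated degradation 3 rises. The cause of other changes was not tested.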
